A study of Mus musculus with 2 samples.

Results

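The enzymes that hydroxylate and cross-link collagen were described in mouse embryonic cells, with and without an activating change in the kinase gene Pik3ca. The 10 genes are P4ha1, P4ha2 and P4ha3, the catalytic α subunits of prolyl 4-hydroxylase, Plod1, Plod2 and Plod3, the lysyl hydroxylases, and Lox, Loxl1, Loxl2 and Loxl3, members of the lysyl oxidase family. They were taken by symbol from the 32285 genes of the count table, where each has a single row. All 10 had UMIs (unique molecular identifiers, each marking 1 captured transcript) in both libraries.

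Prolyl 4-hydroxylase turns prolines of the collagen chain into hydroxyprolines, which hold the triple helix together at body temperature, and lysyl hydroxylases modify the lysines that later form cross-links. Both work in the endoplasmic reticulum and need oxygen, iron, 2-oxoglutarate and ascorbate. Lysyl oxidases are copper enzymes that act outside the cell and oxidise lysines of collagen and elastin, the step that starts their cross-links. P4ha1, P4ha2, Plod2 and several lysyl oxidases are known targets of hypoxia-inducible factor (HIF), the transcription factor that accumulates when oxygen is low.

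Cells were sorted by eYFP from the upper body, above the liver, of E13.5 embryos, and their 5′ transcript ends were sequenced with the 10x Genomics kit. Control embryos were Isl1-Cre;R26R-eYFP and mutant embryos were Isl1-Cre;R26R-eYFP;Pik3caH1047R, so that both groups carried Cre and the label. Only cells in which Isl1-Cre is or was active express the label and, in mutants, the Pik3caH1047R transgene. Each genotype was 1 library made from 3 pooled embryos, the tissue of which was labelled pharyngeal arch. With no replicate library, no test between genotypes was possible, and every interval given here is a 95% interval for counting error and does not cover the variation from embryo to embryo or library to library.

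The kept cells, with over 2000 and under 9000 detected genes and under 10% mitochondrial UMIs, were 2783 in control and 3489 in mutant, with medians of 20412 and 16839 UMIs per cell. Cells were clustered without the 10 genes and the lists of HIF targets, partners, substrates and cofactor genes used below. Cell type markers and the genes used to read sex were not left out. Clusters were named from markers, as "X-like" classes because the names were rebuilt. The 7 classes with at least 50 cells in each library were branchial muscle-like (887 control and 840 mutant cells), mesenchyme-like (950 and 653), EC-like, for endothelial cells (148 and 696), neuron-like (193 and 469), epithelium-like (212 and 306), cardiomyocyte-like (54 and 184) and mesothelium-like (70 and 68). In EC-like cells all 13 EC markers were raised. Endogenous Pik3ca and the transgene share the symbol, and the summed level in EC-like cells was 47.5 CPM in control and 45.2 CPM in mutant, so it does not check the genotype. Read by Xist and 4 genes of the Y chromosome, female-like cells made up 95.5% of control and 33.6% of mutant cells. Male-like cells made up 53.3% of mutant cells. In the cardiomyocyte-like class only 11 of 54 control and 12 of 184 mutant cells were female-like, and 0 and 83 were male-like. A barcode shared by both libraries occurred 12 times among kept cells. The levels below are UMIs of a gene summed over the cells of a class and library, given as counts per 1000000 UMIs of that sum (CPM). Because each UMI marks the 5′ end of 1 transcript, levels need no division by gene length.

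RefSeq promoters (build GRCm38.p6, from 250 bases before to 50 bases after the annotated start) were at hand for 5 of the 10 genes. The core of the HIF response element, ACGTG, and its variant GCGTG were searched on both strands, with no overlap between matches in these windows. Those of P4ha1 and P4ha2, which were higher in the mutant library in most classes, are printed beside those of P4ha3 and Plod3, which were not, with matches in capitals.

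P4ha1, chr10:59323046-59323345, + strand: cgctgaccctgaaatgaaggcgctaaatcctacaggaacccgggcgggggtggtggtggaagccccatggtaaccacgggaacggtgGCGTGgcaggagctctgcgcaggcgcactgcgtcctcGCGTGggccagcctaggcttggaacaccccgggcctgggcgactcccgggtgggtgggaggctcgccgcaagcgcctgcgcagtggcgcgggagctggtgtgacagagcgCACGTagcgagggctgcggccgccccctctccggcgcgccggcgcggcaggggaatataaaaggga
P4ha2, chr11:54100674-54100973, + strand: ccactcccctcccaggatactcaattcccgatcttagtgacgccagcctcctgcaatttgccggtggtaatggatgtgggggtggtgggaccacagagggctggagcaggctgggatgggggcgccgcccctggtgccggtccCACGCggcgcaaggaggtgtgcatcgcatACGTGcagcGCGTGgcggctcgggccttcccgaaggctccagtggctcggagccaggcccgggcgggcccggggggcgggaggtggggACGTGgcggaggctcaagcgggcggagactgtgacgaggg
P4ha3, chr7:100285270-100285569, + strand: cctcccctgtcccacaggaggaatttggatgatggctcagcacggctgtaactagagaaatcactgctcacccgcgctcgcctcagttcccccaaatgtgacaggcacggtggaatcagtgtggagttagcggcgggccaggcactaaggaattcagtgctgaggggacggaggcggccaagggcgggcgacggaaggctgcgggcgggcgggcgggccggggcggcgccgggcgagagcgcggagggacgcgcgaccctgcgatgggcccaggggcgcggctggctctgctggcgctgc
Plod3, chr5:136986769-136987068, + strand: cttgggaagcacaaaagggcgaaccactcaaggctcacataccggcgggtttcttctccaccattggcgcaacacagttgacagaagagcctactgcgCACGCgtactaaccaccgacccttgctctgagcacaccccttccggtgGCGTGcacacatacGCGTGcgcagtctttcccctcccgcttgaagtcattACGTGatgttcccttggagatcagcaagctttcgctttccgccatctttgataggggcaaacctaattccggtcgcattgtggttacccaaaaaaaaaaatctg

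The windows of P4ha1 and P4ha2 held 3 and 4 matches, that of P4ha3 held 0 and that of Plod3 held 4, so that the number of matches does not separate the genes that were higher in mutant cells from those that were not. Of 32851 promoters of the same length, 43.8% held at least 1 match of either form and 20.6% at least 2. The window of Plod1, chr4:147936727-147937026 on the minus strand, held 2 matches. The P4ha2 window lies inside its gene, downstream of the GENCODE gene start at base 54100095, whereas the other windows hold the start of their gene.

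The main α subunit, P4ha1, lies on chromosome 10 (GRCm38, bases 59323296 to 59373304) and was the most abundant member of its family in every class of both libraries. In control cells its level was 147 CPM in mesothelium-like and 92.1 CPM in mesenchyme-like cells, then 62.6 CPM (epithelium-like), 53.7 CPM (EC-like), 44.7 CPM (branchial muscle-like), 32.8 CPM (neuron-like) and 23.1 CPM (cardiomyocyte-like). In this order the intervals of neighbours overlapped between epithelium-like and EC-like, EC-like and branchial muscle-like, and neuron-like and cardiomyocyte-like cells. In mutant cells the levels were 343, 243, 194, 244, 133, 76.6 and 34.1 CPM for the same classes, which placed EC-like cells beside mesenchyme-like cells. The log2 ratio of mutant over control was largest in EC-like cells, at 2.18 (interval 1.96 to 2.41). It was 1.63 in epithelium-like, 1.57 in branchial muscle-like, 1.40 in mesenchyme-like, and 1.22 in both neuron-like and mesothelium-like cells, with all intervals above 0. Cardiomyocyte-like cells, with 20 control UMIs, gave 0.56 with an interval from -0.13 to 1.33.

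P4ha2, on chromosome 11, encodes the second α subunit and stood much lower than P4ha1 in control cells. Its control level was 37.7 CPM in mesothelium-like and 31.6 CPM in mesenchyme-like cells, then 14.4 CPM (epithelium-like), 9.38 CPM (branchial muscle-like) and 6.13 CPM (EC-like). Mutant levels were 185, 138, 74.5, 60.3 and 69.0 CPM for these classes. Neuron-like cells, with 54 control UMIs, lay between epithelium-like and branchial muscle-like cells in control and reached 38.1 CPM in mutant. The intervals of the libraries overlapped in none of these 6 classes. Cardiomyocyte-like cells held 19.6 CPM in control, and in this library the intervals of every pair of neighbours in the order overlapped. EC-like cells, lowest in control, passed branchial muscle-like and neuron-like cells in the mutant library. The EC-like log2 ratio was 3.49 (2.86 to 4.21) and rested on 20 control against 958 mutant UMIs, percentile 99.5 of all genes tested in that class. Those of the other classes were 2.68 (branchial muscle-like), 2.37 (epithelium-like), 2.29 (mesothelium-like), 2.13 (mesenchyme-like) and 1.49 (neuron-like). The neuron-like clusters were unequal. The one led by Igfbpl1 and Dcc (100 control and 325 mutant cells) gave 0.69 (-0.13 to 1.60). The one led by Thsd7b (67 and 133 cells) gave 2.20 (1.64 to 2.81). In cardiomyocyte-like cells the level was 19.6 CPM in control and 18.5 CPM in mutant, a log2 ratio of -0.09 (-0.89 to 0.78).

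P4ha3, on chromosome 7, encodes the third α subunit and had ratios unlike those of P4ha1 and P4ha2. In mesenchyme-like cells it stood at 33.5 CPM in both libraries, with a log2 ratio of 0.00 (-0.19 to 0.19). The clusters of this class went opposite ways. In the larger it was 43.1 and 30.4 CPM, a log2 ratio of -0.51 (-0.74 to -0.28). In the smaller it was 22.4 and 42.1 CPM, a log2 ratio of 0.91 (0.58 to 1.24). Among female-like mesenchyme-like cells the log2 ratio was 0.47 (0.20 to 0.74). EC-like cells had 27.3 CPM in control and 43.0 CPM in mutant, a log2 ratio of 0.66 (0.33 to 0.99). In neuron-like cells it was lower in mutant, 2.05 against 11.0 CPM with 16 against 44 UMIs, and in epithelium-like cells 19.3 against 29.7 CPM. The log2 ratios there were -2.43 (-3.35 to -1.57) and -0.62 (-1.01 to -0.23). In branchial muscle-like, cardiomyocyte-like and mesothelium-like cells the log2 ratios were 0.38, -0.21 and -0.50, the latter pair with intervals that held 0. Clusters of the branchial muscle-like class ranged from -0.43 (-0.96 to 0.09) to 1.51 (-0.13 to 3.39), the latter from 5 and 11 UMIs.

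**Figure D1:**
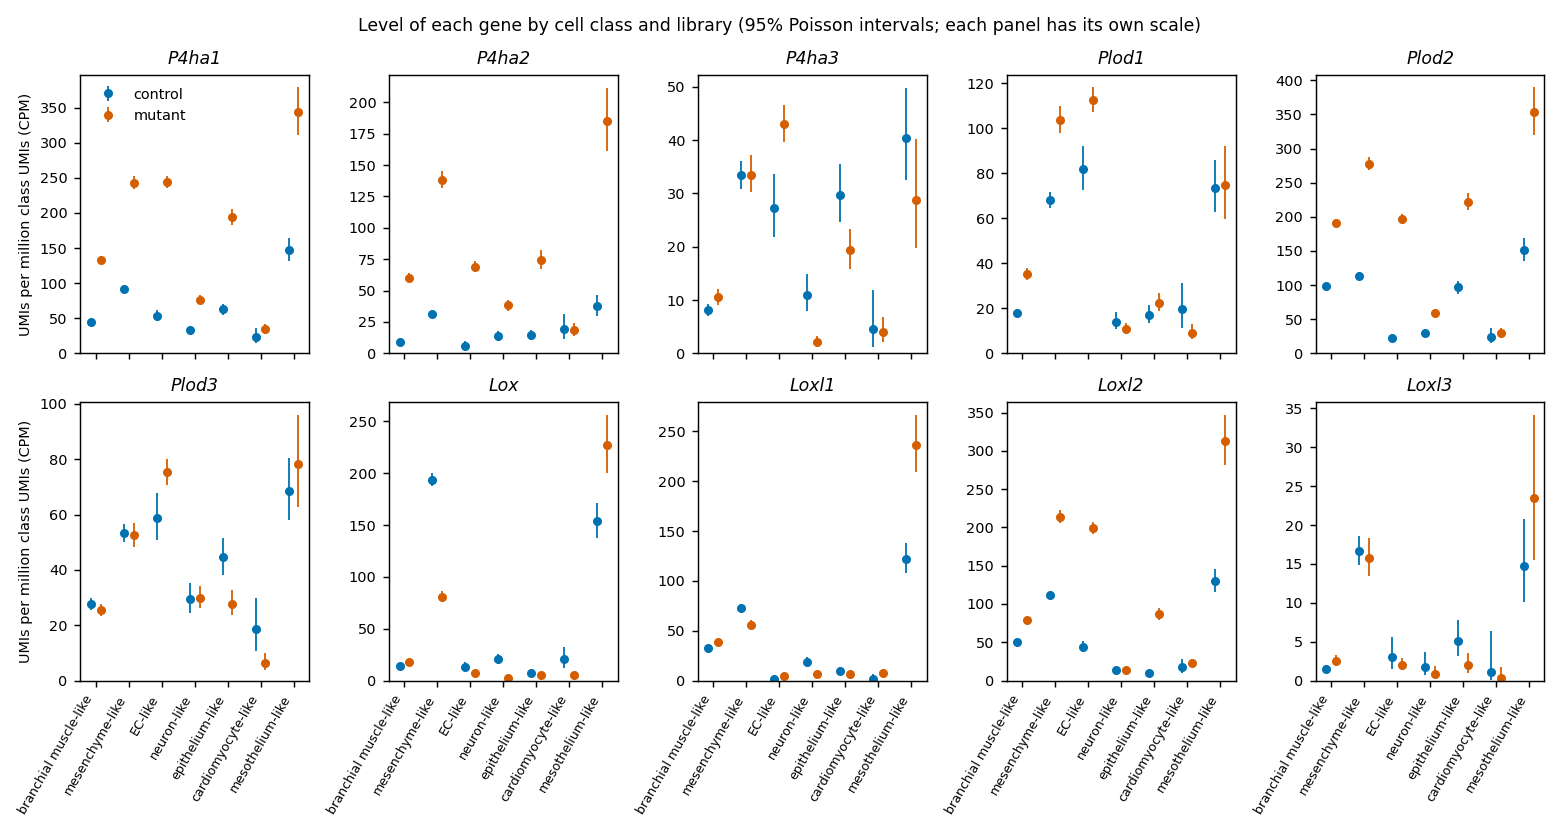
Level of each of the 10 genes (y axis, CPM, starting at 0 with a scale of its own in each panel) in the 7 cell classes (x axis), for the control library (blue) and the mutant library (orange). Points are sums over cells and bars are 95% Poisson intervals. P4ha1 and Plod2 stand higher in mutant in all 7 classes, with overlapping intervals in cardiomyocyte-like cells, and P4ha2 does in 6. P4ha3 and Plod3 show no common direction, and Lox in mesenchyme-like cells is 194 CPM in control and 80.6 CPM in mutant.

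Among the lysyl hydroxylases, Plod2, on chromosome 9, which modifies the telopeptide lysines of collagen, had the largest ratio in 6 of the 7 classes, all but branchial muscle-like cells. EC-like cells had the lowest level of it in control, 23.0 CPM, against 24.2 in cardiomyocyte-like, 29.1 in neuron-like, 96.7 in epithelium-like, 98.9 in branchial muscle-like, 114 in mesenchyme-like and 152 in mesothelium-like cells. The first of these gaps beyond counting error was that between neuron-like and epithelium-like cells. In the mutant library the EC-like level was 197 CPM, a log2 ratio of 3.10 (2.77 to 3.45), percentile 99.2 of all genes, and exceeded the branchial muscle-like level of 191 CPM, though with overlapping intervals. The other log2 ratios were 1.28 in mesenchyme-like, 1.22 in mesothelium-like, 1.20 in epithelium-like, 1.02 in neuron-like and 0.95 in branchial muscle-like cells, with all intervals above 0. Within neuron-like cells the Igfbpl1-led cluster gave 0.13 (-0.34 to 0.63) and the Thsd7b-led cluster 1.80 (1.36 to 2.25). The cardiomyocyte-like ratio was 0.31 (-0.38 to 1.07).

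Plod1, on chromosome 4, which acts on helical lysines, was highest among the compared classes in EC-like cells of the control library, at 81.9 CPM. Mesothelium-like cells followed at 73.6 CPM, with an overlapping interval. Mesenchyme-like cells came next at 68.0 CPM, with an interval that overlapped that of mesothelium-like but not of EC-like cells. Plod1 was higher in mutant in branchial muscle-like cells (17.8 to 35.1 CPM, log2 ratio 0.98, 0.80 to 1.16), mesenchyme-like cells (68.0 to 104 CPM, 0.61, 0.49 to 0.73) and EC-like cells (81.9 to 113 CPM, 0.46, 0.27 to 0.65). In cardiomyocyte-like cells it was lower, 9.23 against 19.6 CPM with 30 against 17 UMIs, a log2 ratio of -1.09 (-1.99 to -0.14). The intervals of the 3 remaining classes held 0.

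Plod3, on chromosome 5, which also transfers sugars to hydroxylysine, differed little between libraries in most classes. Its log2 ratio was -0.02 in mesenchyme-like, -0.11 in branchial muscle-like, 0.02 in neuron-like and 0.19 in mesothelium-like cells, all with intervals that held 0. In the larger mesenchyme-like cluster it was -0.22 (-0.40 to -0.03), and in the smaller 0.25 (-0.02 to 0.53). EC-like cells gave 0.35 (58.9 to 75.2 CPM, 0.13 to 0.58). Epithelium-like cells had 44.6 CPM in control and 27.8 CPM in mutant, a log2 ratio of -0.68 with an interval below 0, and cardiomyocyte-like cells 18.5 and 6.46 CPM, a log2 ratio of -1.52 (-2.52 to -0.48).

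**Figure D2:**
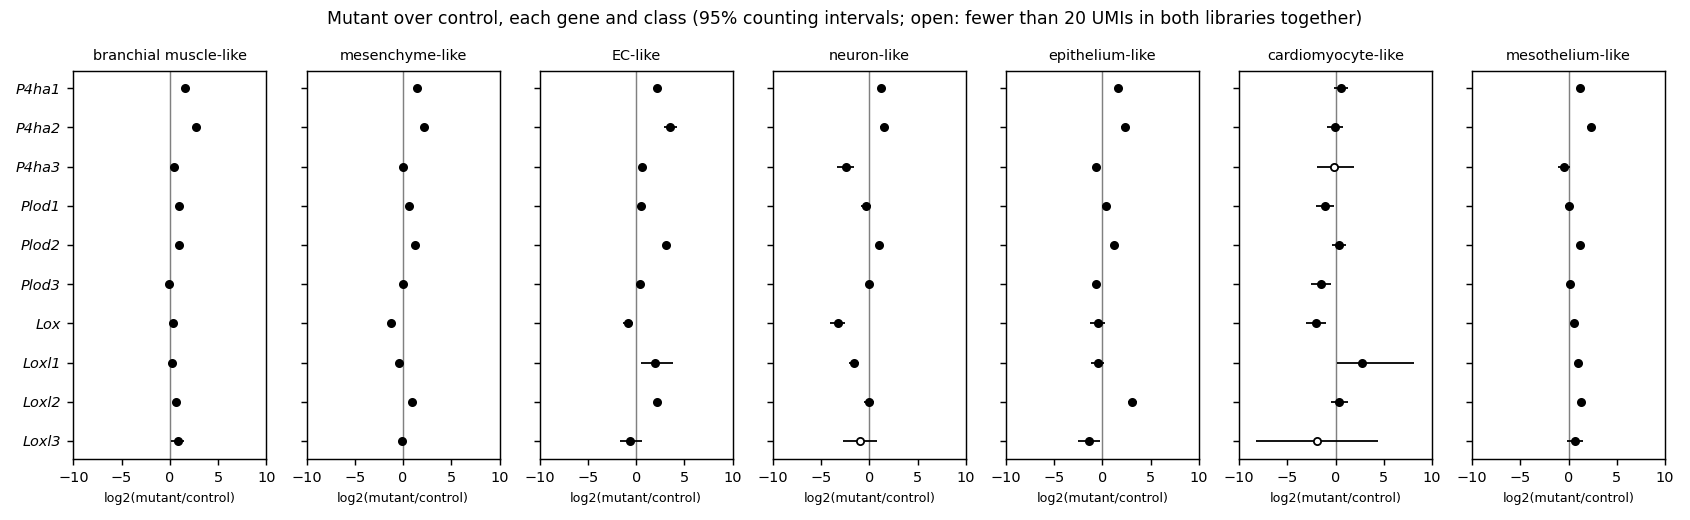
Log2 ratio of mutant over control (x axis) for each gene (y axis) in the 7 classes (panels), with 95% conditional binomial intervals. The grey line marks equal levels, filled points have at least 20 UMIs in both libraries together, and open points have fewer. In EC-like cells P4ha2 (3.49), Plod2 (3.10), P4ha1 (2.18) and Loxl2 (2.16) stand farthest to the right, and in epithelium-like cells Loxl2 (3.12) does.

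The lysyl oxidases differed in direction. Loxl2, on chromosome 14, which acts on type IV collagen of basement membranes among other substrates, was higher in mutant in EC-like cells (44.5 to 199 CPM) and in epithelium-like cells (9.98 to 86.8 CPM). The log2 ratios were 2.16 (1.92 to 2.41) and 3.12 (2.66 to 3.62), and the epithelium-like value was the largest of the 10 genes in that class. Smaller ratios above 0 were found in mesothelium-like (1.26), mesenchyme-like (0.94) and branchial muscle-like cells (0.66). Clusters of the branchial muscle-like class ranged from 0.24 (0.04 to 0.43) to 3.16 (2.19 to 4.28), the latter from 10 and 69 UMIs. Neuron-like cells held 14.0 CPM in control and 13.6 CPM in mutant, a log2 ratio of -0.05 (-0.53 to 0.45). Among female-like cells of that class the log2 ratio was -0.82 (-1.48 to -0.17). The cardiomyocyte-like ratio of 0.39 had an interval that held 0.

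Lox, on chromosome 18, the founding member of the family, had its highest level among the 7 compared classes in mesenchyme-like cells of the control library, 194 CPM, followed by mesothelium-like cells at 154 CPM, and no other one of them exceeded 20.8 CPM. In the mutant library the mesenchyme-like level was 80.6 CPM, a log2 ratio of -1.27 (-1.37 to -1.16) from 3682 against 879 UMIs, percentile 3.74 of all genes. Mesothelium-like cells held 227 CPM in mutant, a log2 ratio of 0.56 (0.32 to 0.80), but the sign turned when cells were thinned to 5000 UMIs (-0.16) and among female-like cells (-0.13). In branchial muscle-like cells the ratio was 0.36 (14.1 to 18.1 CPM). Clusters of that class ranged from -0.27 (-0.67 to 0.12) to 2.40 (1.43 to 3.50), the latter from 11 and 45 UMIs. Lower levels in mutant were seen in neuron-like (20.6 to 2.18 CPM), EC-like (44 UMIs in control, 7.56 CPM in mutant, log2 ratio -0.83) and cardiomyocyte-like cells (20.8 to 5.23 CPM). These sums came from few cells. Of the 82 control UMIs in neuron-like cells, 60 lay in 5 cells, and of the 44 in EC-like cells, 35 lay in 5 cells. In cardiomyocyte-like cells, 17 of the 18 control UMIs lay in 11 female-like cells. Of the 17 mutant UMIs there, 11 lay in 12 female-like cells and 1 in 83 male-like cells. Among female-like cardiomyocyte-like cells the log2 ratio was -0.66 (-1.90 to 0.51). The summed level of the 14 mesenchyme markers differed in the same direction in these classes, 155 CPM in control and 22.7 CPM in mutant for neuron-like cells (0 and 1 marker at 0), and 125 and 47.0 CPM for EC-like cells (1 marker at 0 in each). Its part in the Lox values, and in the neuron-like values of P4ha3 and Loxl1, was not tested. The unnamed cluster led by hemoglobin and macrophage genes held 5.39 and 1.60 CPM of Lox, a level to set beside these low values.

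Loxl1, on chromosome 9, which is needed for elastic fibres, was highest in mesothelium-like cells, with 122 CPM in control and 236 CPM in mutant and a log2 ratio of 0.95 (0.70 to 1.20). Control cells of that class were the deeper ones, with a median of 28114 UMIs per cell against 14079.5 in mutant. Mesenchyme-like cells had 73.1 and 55.8 CPM, a log2 ratio of -0.39 (-0.53 to -0.25). Among female-like mesenchyme-like cells the levels were 72.4 and 69.9 CPM, a log2 ratio of -0.05 (-0.27 to 0.16). Branchial muscle-like cells had 32.8 and 38.2 CPM. In neuron-like cells it was lower in mutant, 6.42 against 19.0 CPM. EC-like cells had 4 UMIs in control and 64 in mutant, 1.23 and 4.61 CPM, and the interval of the log2 ratio of 1.91 reached from 0.48 to 3.83. A single control UMI lay behind the cardiomyocyte-like ratio of 2.79 (0.19 to 8.15). Loxl3, on chromosome 6, was the scarcest of the lysyl oxidases in most of the 7 compared classes, with no level above 16.7 CPM in control or 23.5 CPM in mutant among them. Its ratios were 0.79 in branchial muscle-like cells (34 against 49 UMIs) and -1.36 in epithelium-like cells (21 against 11 UMIs), and the other intervals held 0.

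As a group, the genes stood highest against control in EC-like cells. Of the 10 genes with at least 20 UMIs there, 6 were higher and 2 lower past 1.5-fold, where 14.9% and 15.3% of all 14176 genes tested in the class were, and their median log2 ratio was 1.28 against -0.07 over all genes. In branchial muscle-like cells 6 of 10 were higher and 0 lower (17.0% and 9.93% of all genes), with a median of 0.73 against 0.02. In mesothelium-like cells the counts were also 6 and 0 (22.8% and 14.3%), with a median of 0.81 against 0.05. Mesenchyme-like cells had 5 higher and 1 lower (13.9% and 10.9%), with a median of 0.31 against 0.01, the 1 being Lox. The members split in the other classes. In epithelium-like cells 4 were higher and 3 lower (10.8% and 12.1%), in neuron-like cells 3 and 3 of 9 (8.2% and 18.3%), and in cardiomyocyte-like cells 1 and 3 of 8 (13.6% and 21.5%), with medians of -0.04, -0.05 and 0.11. Scaling by edgeR TMM factors would add 0.12 to every log2 ratio in EC-like cells, 0.11 to those of neuron-like cells and 0.15 to those of cardiomyocyte-like cells, and take 0.12 from those of mesothelium-like cells, which turns the sign of Loxl2 in neuron-like, P4ha2 in cardiomyocyte-like and Plod1 in mesothelium-like cells. It also turns that of P4ha3 in mesenchyme-like cells, and all 4 intervals held 0.

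The make-up of each family differed between libraries as well, since its members differed unequally. In EC-like cells P4ha2 held 7.04% of the UMIs of the 3 α subunits in control and 19.4% in mutant, and P4ha3 31.3% and 12.1%. The mesenchyme-like share of P4ha1 was 58.6% in each library, while P4ha2 went from 20.1% to 33.3%. Among lysyl hydroxylases of EC-like cells, Plod1 held 267 of 534 UMIs and Plod2 14.0% in control, and the order was turned in mutant, with 29.2% and 51.2%. For the lysyl oxidases the leading gene of mesenchyme-like cells was Lox in control, with 49.0% against 28.3% for Loxl2, and Loxl2 in mutant, with 58.5% against 22.0% for Lox. In epithelium-like cells Loxl2 held 30.6% in control and 85.7% in mutant, and in EC-like cells it led in both, with 71.4% and 93.3%.

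**Figure D3:**
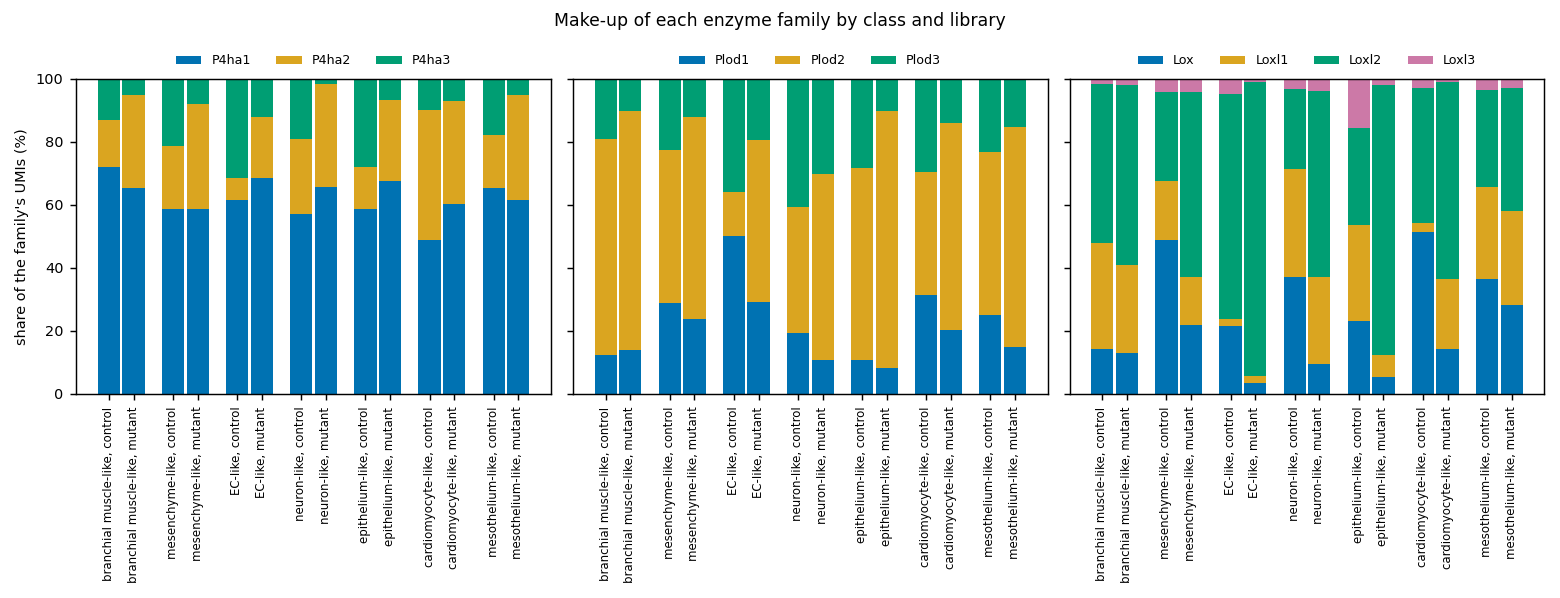
Share of each family's UMIs (y axis, percent) held by each member (colours) in every class and library (x axis, control left and mutant right in each pair), for the prolyl 4-hydroxylase α subunits, the lysyl hydroxylases and the lysyl oxidases. In EC-like cells the Plod2 share is 14.0% in control and 51.2% in mutant, and in mesenchyme-like cells the Lox share is 49.0% and 22.0%.

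Finer clusters, from a higher clustering resolution, showed which of these differences were shared inside a class. Summed over the mesenchyme-like class, the 8 smooth muscle markers stood at 419 CPM in control and 1204 CPM in mutant with 0 markers at 0, and their part in the ratios of this class was not tested. The class split mainly into a cluster led by Twist1, Lum and Dcn (391 control and 361 mutant cells), a cluster led by Adh1, Wnt2 and Tbx4 (351 and 78) and a cartilage-like cluster led by Col9a3 and Col2a1 (193 and 155). P4ha1, P4ha2 and Plod2 were higher in mutant in all 3. Their log2 ratios were 1.37, 1.96 and 1.03 in the Twist1-led cluster, 0.91, 1.39 and 0.73 in the Adh1-led cluster and 1.15, 1.81 and 1.08 in the cartilage-like cluster. Lox was lower in all 3, at 231 and 75.3 CPM, 173 and 108 CPM, and 157 and 79.1 CPM. Loxl2 differed among them. It stood at 162 and 165 CPM in the Twist1-led cluster, a log2 ratio of 0.03 (-0.09 to 0.15), at 59.3 and 142 CPM in the Adh1-led cluster (1.26) and at 133 and 219 CPM in the cartilage-like cluster (0.72). Loxl1 was lower in mutant in the Twist1-led and cartilage-like clusters (log2 ratios -1.23 and -1.11) and higher in the Adh1-led cluster (0.85, from 27.0 to 48.7 CPM). The numbers of cells from these clusters were unequal between libraries, and their part in the class ratios of Loxl1 and Loxl2 was not tested.

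A cluster led by Gja4, Eln and Fbln5, which had both EC and smooth muscle markers raised and was left unnamed, held 36 control and 148 mutant cells. At the lower resolution its cells were divided between the EC-like class (21 and 90 cells) and the mesenchyme-like class. In the latter, 15 and 55 of them made up 4.09% of the control and 41.4% of the mutant cells of the Adh1-led cluster found at that resolution, and 3 mutant cells lay in its larger cluster. In it Lox was 98.4 CPM in control and 57.9 CPM in mutant, and Loxl1 133 and 58.6 CPM. The remaining EC-like cells had hardly any of either, with Lox at 7.48 and 2.18 CPM and Loxl1 at 1.12 and 4.71 CPM in the cluster led by Emcn and Plvap (107 and 522 cells). P4ha1, P4ha2, Plod2 and Loxl2 were higher in mutant in that Emcn-led cluster too, with log2 ratios of 2.33, 4.23, 3.15 and 2.23, and in a small cluster led by Tll1 (20 and 88 cells), with 2.13, 2.05, 3.75 and 2.73.

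The epithelium-like class also had an unequal make-up. A cluster led by Oc90, Epcam and Sftpc held 60.4% of its control and 34.6% of its mutant cells, one led by Krt14 and Trp63 held 34.9% and 45.8%, and one led by Krt5 and Sfn held 4.72% and 19.6%. Loxl2 was higher in mutant in the Oc90-led cluster, at 13.8 and 86.0 CPM (log2 ratio 2.64, 2.12 to 3.20). In the Krt14-led cluster it had 3 UMIs in control and 167 in mutant, a log2 ratio of 5.17 (3.60 to 7.46). The Plod2 ratio was 0.73 (0.53 to 0.93) in the Oc90-led cluster and 2.89 (2.44 to 3.36) in the Krt14-led cluster. Over the class the 8 smooth muscle markers summed to 94.2 CPM in control and 618 CPM in mutant, with 0 at 0 in each, and their part in these values was not tested.

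Within each library, cells of a class were ordered by the share of their UMIs in 25 HIF target genes outside the 10, among them Vegfa, Slc2a1 and Bnip3, and divided into 3 equal groups, called terciles. The HIF genes themselves were higher in mutant, with a median log2 ratio of 2.40 in EC-like cells and 2.28 in mesenchyme-like cells. In both classes 24 of 25 were higher past 1.5-fold, where 14.9% and 13.9% of all genes were. In mutant EC-like cells the levels of P4ha1 from the bottom to the top tercile were 113, 199 and 422 CPM, those of P4ha2 19.5, 34.4 and 154 CPM, and those of Plod2 54.7, 128 and 411 CPM. Loxl2 followed with 112, 167 and 319 CPM. Top over bottom, the log2 ratios were 1.90, 2.99, 2.91 and 1.51. In control EC-like cells they were -0.26, 0.32, 0.57 and 0.06, and all 4 intervals held 0. Control EC-like cells held only 175, 20, 75 and 145 UMIs of these genes. Terciles were cut within each library, so those of control and mutant need not span the same range of HIF share. Lox, Loxl1 and P4ha3 ran the other way in mutant EC-like cells. Lox went from 16.4 to 1.31 CPM, Loxl1 from 6.71 to 2.40 CPM and P4ha3 from 73.8 to 14.8 CPM. The cluster led by Gja4, Eln and Fbln5 held 25.4% of the bottom and 5.17% of the top tercile, and its part in these 3 values was not tested. Male-like cells made up 51.3% of the bottom and 68.1% of the top tercile, and the Emcn-led cluster 60.8% and 80.6%. The part of either in the EC-like levels of all these genes was not tested.

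In mutant mesenchyme-like cells the terciles of P4ha1 stood at 87.8, 156 and 522 CPM, those of P4ha2 at 33.9, 51.8 and 355 CPM, those of Plod2 at 136, 203 and 528 CPM and those of Plod1 at 55.6, 94.4 and 171 CPM. Their median depths were 16841, 14103 and 12840 UMIs per cell, the part of which in these values was not tested. Control terciles, cut on their own range of HIF share, held 86.4, 79.7 and 112 CPM of P4ha1 and 122, 103 and 119 CPM of Plod2. Lox was 67.1, 47.0 and 132 CPM in mutant and 192, 206 and 181 CPM in control, so that each mutant tercile lay below each control tercile. Top over bottom, the log2 ratio of Lox was 1.15 (0.89 to 1.41) in male-like mutant cells and -0.08 (-0.63 to 0.46) in female-like ones, and the difference was not tested. For P4ha1, P4ha2 and Plod2 both sexes gave ratios above 0, at 1.59, 2.06 and 1.47 in female-like and 2.87, 3.81 and 2.34 in male-like cells. The Loxl1 level went down from 76.3 to 33.7 CPM and Loxl2 stayed between 179 and 249 CPM. The lower-resolution Adh1-led cluster, in which mutant Loxl1 was 80.8 and Loxl2 304 CPM against 46.5 and 181 CPM in the larger cluster, held 31.2% of the bottom and 10.6% of the top tercile. Male-like cells made up 56.4% of the bottom and 73.3% of the top tercile, and the part of either in these values was not tested.

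**Figure D4:**
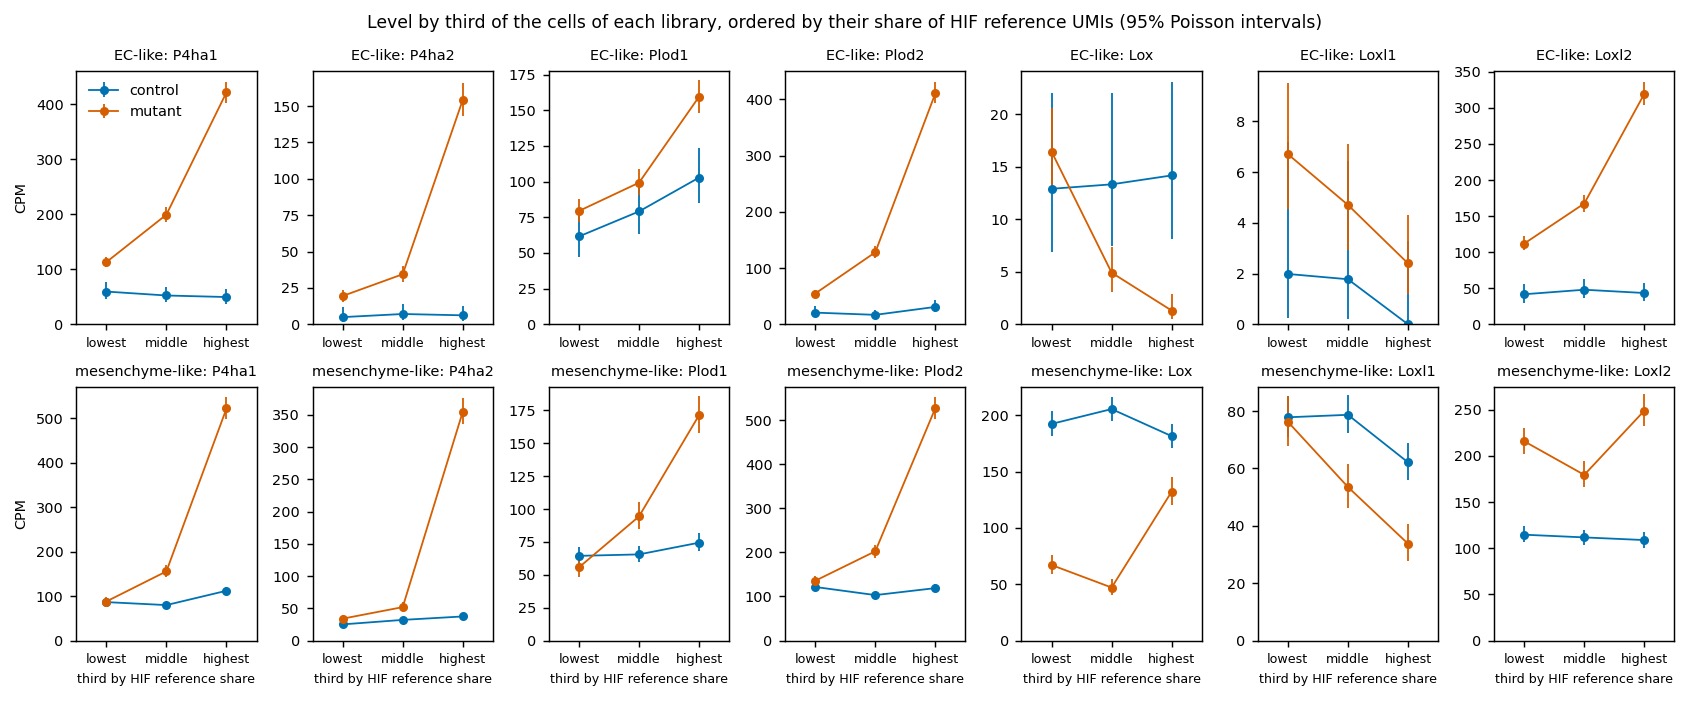
Level (y axis, CPM) of 7 genes in terciles of the cells of a library ordered by their share of HIF reference UMIs (x axis), in EC-like cells (upper row) and mesenchyme-like cells (lower row), for control (blue) and mutant (orange). Bars are 95% Poisson intervals. P4ha1, P4ha2 and Plod2 climb in the mutant library in both rows, and in mesenchyme-like cells they start near the control level, whereas Lox stays below it and Loxl2 above it in all terciles.

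The bottom tercile of mutant cells was also set against all control cells of the class. In mesenchyme-like cells its HIF level was 893 CPM against 837 CPM in control, and P4ha1 (87.8 against 92.1 CPM) and P4ha2 (33.9 against 31.6 CPM) had log2 ratios of -0.07 (-0.24 to 0.10) and 0.10 (-0.18 to 0.37). Plod2 stood at 136 against 114 CPM, a log2 ratio of 0.25. Lox and Loxl2 kept their distance, with log2 ratios of -1.53 (-1.71 to -1.35) and 0.95 (0.83 to 1.07), although 16.1% of this tercile came from the Gja4-led cluster, in which mutant Loxl2 was 311 CPM. In EC-like cells the bottom tercile had an HIF level of 1083 CPM against 854 CPM in control, and P4ha1, P4ha2, Plod2 and Loxl2 were all still above control, with log2 ratios of 1.07, 1.67, 1.25 and 1.33 and intervals above 0. Neuron-like cells differed from both. Their bottom tercile had an HIF level of 705 against 767 CPM, and Plod2 and Loxl2 stood below control there, with log2 ratios of -0.70 (-1.21 to -0.21) and -1.18 (-2.05 to -0.37), while P4ha1 (0.00) and P4ha2 (-0.40) had intervals that held 0. The Igfbpl1-led cluster made up 82.2% of this tercile but 100 of the 193 control cells. The part of this unequal make-up in the neuron-like values was not tested.

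The mutant pool held embryos of both sexes, which allowed cells of different embryos to be compared inside 1 library. The 25 HIF genes together were higher in male-like than in female-like mutant cells, for example 5153 against 3458 CPM in EC-like cells and 3999 against 2183 CPM in mesenchyme-like cells. P4ha2 differed in the same direction, with log2 ratios of male-like over female-like cells of 0.61 in EC-like, 0.84 in mesenchyme-like, 1.23 in branchial muscle-like and 1.70 in epithelium-like cells, all intervals above 0. P4ha1 gave 0.35, 0.65, 0.42 and 0.98 in these classes. Plod2 gave 0.33, 0.08 (-0.04 to 0.20), 0.17 and 1.27. Loxl2 gave 0.57, -0.001 (-0.13 to 0.13), 0.51 and 1.05. In the remaining classes P4ha2 gave 1.10 in mesothelium-like, 0.26 (-0.14 to 0.65) in neuron-like and -0.03 (-1.20 to 1.37) in cardiomyocyte-like cells. The last value came from 12 female-like and 83 male-like cells. Among female-like cells of both libraries alone, P4ha2 stood at 6.65 CPM in control and 52.1 CPM in mutant EC-like cells, a log2 ratio of 2.97. It was 1.52 in mesenchyme-like, 1.86 in branchial muscle-like and 1.23 in epithelium-like cells. The Plod2 ratio in epithelium-like cells was 0.35 (0.11 to 0.58) among female-like cells, against 1.20 among all. In neuron-like cells it was 0.39 (0.03 to 0.76) among female-like cells, against 1.02 among all. Lox in mesenchyme-like cells was 194 CPM in female-like control cells, 93.7 CPM in male-like mutant cells and lower still in female-like mutant cells (151 UMIs in 194 cells, a log2 ratio to control of -1.96). Sex and embryo cannot be told apart here.

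**Figure D5:**
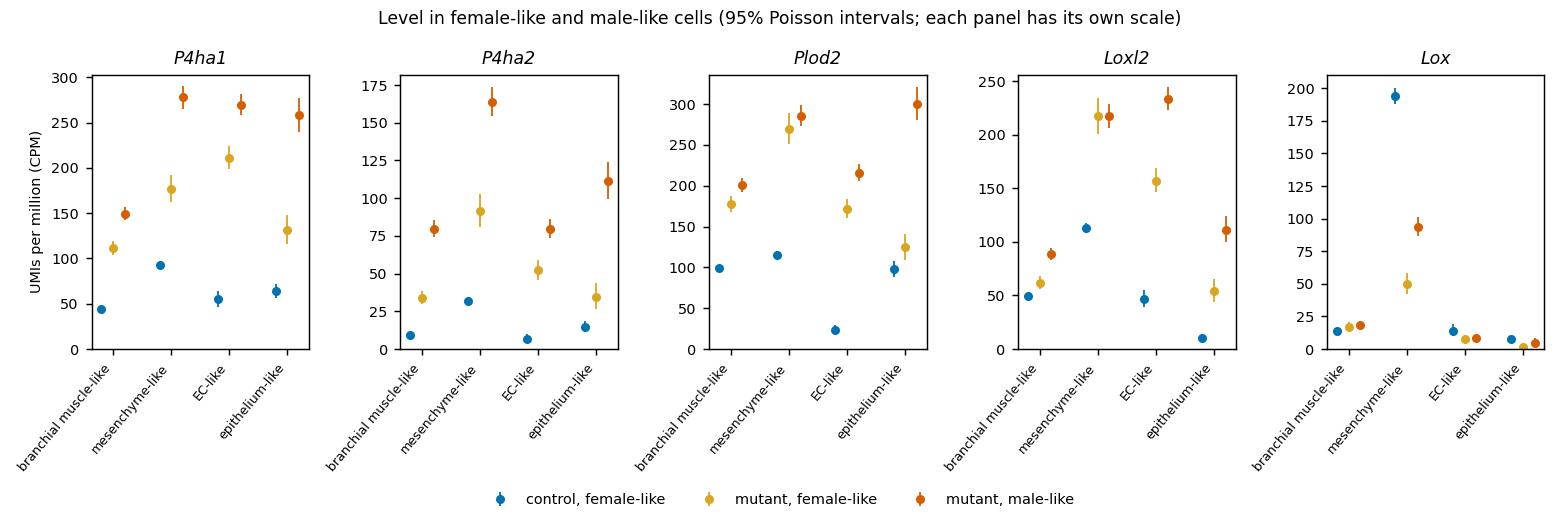
Level (y axis, CPM, own scale in each panel) of P4ha1, P4ha2, Plod2, Loxl2 and Lox in 4 classes (x axis) for female-like control cells (blue), female-like mutant cells (yellow) and male-like mutant cells (red). Bars are 95% Poisson intervals. Both mutant groups stand above control for the first 4 genes in each class, and both stand below it for Lox in mesenchyme-like cells.

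Genes that work with these enzymes were summarised from lists chosen by function. The 23 partners in collagen modification and export (P4hb, the β subunit of prolyl 4-hydroxylase, prolyl 3-hydroxylases, chaperones, procollagen proteinases) were described in the same way. In EC-like cells 21 were tested, with a median log2 ratio of -0.01. Past 1.5-fold 3 were higher and 3 lower, 14.3% each, near the 14.9% and 15.3% of all genes. The highest were Tll1, a procollagen C-proteinase (29.7 to 317 CPM, log2 ratio 3.42), and P3h1, a prolyl 3-hydroxylase (19.9 to 40.1 CPM, 1.01). The lowest were Tll2 (-1.28, from 8 and 14 UMIs) and Pcolce (-1.15). In mesenchyme-like cells the median of the 23 was -0.31, with 1 higher and 5 lower (13.9% and 10.9% of all genes). Tll2 (0.71, interval -0.04 to 1.46) and Tll1 (0.56) were the highest, and Adamts2, a procollagen N-proteinase (-1.27), and Loxl4 (21 and 1 UMIs) the lowest.

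The 15 substrates, fibrillar collagens and components of the elastic fibre, were lower in mutant mesenchyme-like cells as a median, -0.68 against 0.01 over all genes. Past 1.5-fold 8 were lower and 0 higher, where 10.9% and 13.9% of all genes were. Col1a1, the α1 chain of type I collagen, was the lowest (1950 to 727 CPM, log2 ratio -1.42), then Col1a2 (1404 to 651 CPM, -1.11), and Fbln5 (0.10) and Emilin1 (0.00) were the highest. In EC-like cells their median was -0.03, with Col1a1 (-2.46, from 127 and 98 UMIs) and Eln (-1.92) lowest. There 4 were lower and 0 higher, where 15.3% and 14.9% of all genes were. The 14 mesenchyme markers summed to 125 CPM in control and 47.0 CPM in mutant EC-like cells. Their part in these EC-like values was not tested. Among 7 genes of ascorbate, iron and copper supply, the EC-like median was 0.08 and the mesenchyme-like median -0.30. The transferrin receptor Tfrc was the highest in mesenchyme-like cells (16.4 to 38.1 CPM, 1.22) and the iron importer Slc39a14 the lowest in EC-like cells (13.2 to 5.76 CPM, -1.19).

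Across the 14 sums of class and library, the pattern of each gene was set beside those of 7345 genes that reached 50 CPM in 1 or more sums, by Pearson's r of log2(CPM + 10). The sums share 2 libraries and differ in depth, and the values are descriptions. Most like P4ha1 were Golt1b (0.93), Plod2 (0.92) and Hspa1b (0.92), and most like P4ha2 were Vegfa (0.93), P4ha1 (0.89) and Slc16a3 (0.89). For Plod2 they were Asph (0.93), P4ha1 (0.92) and Tex14 (0.89), and for Loxl2 they were Golt1b (0.92), Cald1 (0.90) and Ikbip (0.90). Lox was matched by Col1a1 (0.97), Col1a2 (0.97) and Creb3l1 (0.96), a transcription factor of collagen genes. The r between Lox and P4ha1 was 0.44.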

How the data were processed

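The authors aligned the reads with Cell Ranger 7.1.0 to mm10 (GRCm38) and deposited UMI counts of each gene per called cell, 4505 control and 5357 mutant cells, with no normalization. The annotation release and the counting of intronic reads are not given in the sources used here. The limits of the study (over 2000 and under 9000 genes, under 10% mitochondrial UMIs) left 2783 and 3489 cells. A symbol shared by several identifiers (40 identifiers) kept the one with the most UMIs, and none of the 10 genes was concerned.

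Libraries were integrated in Seurat 5.3.0 (R 4.3.3) by canonical correlation anchors on 2000 variable genes that left out 80 genes reported here, with 30 components and 20 neighbours. The lowest resolution giving at least 15 clusters was 0.4, which gave 17. Finer clusters came from resolution 0.8 (25 clusters). A cluster was named where at least 3 markers of a list were raised by a log2 ratio of 1. It was left unnamed where another list had more markers among its leading genes. The same held where a second list had nearly as many raised markers, unless both were mesenchyme, smooth muscle or cartilage lists. Doublets were kept, since Scrublet (scanpy 1.11.5) called 0 control cells and 1 mutant cell. Cells were female-like with an Xist UMI and none of Ddx3y, Uty, Kdm5d or Eif2s3y, and male-like with the reverse.

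UMIs were summed per class and library. All intervals are at 95%: for CPM exact Poisson, for shares Clopper-Pearson, and for ratios binomial given the summed UMIs of both libraries. Lists were described over genes with at least 20 UMIs in a class. The members and gene lists were chosen with earlier results of these data known. Named genes are the 10, the 2 highest and 2 lowest of each other list and the 3 most like P4ha1, P4ha2, Plod2, Lox and Loxl2. The ratio code was tested on simulated data. The alternatives were removal of high-scoring doublets, no integration, resolution 0.8, TMM (edgeR 4.0.16) and median-ratio scaling, means over cells, cells thinned to 5000 UMIs, female-like or G1 cells, a 5% mitochondrial limit, list minimums of 100 and 1 UMIs and a fold of 2. Chosen after seeing the data were each mesenchyme-like cluster alone, removal of shared barcodes, and the comparison of bottom terciles with all control cells. Scripts ran in Python 3.11.15 with scipy 1.17.1, numpy 2.4.6, matplotlib 3.10.9 and pandas 2.3.3. Gene coordinates are those of GENCODE on GRCm38.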

Additional observations from a re-analysis of the deposited data

Results flagged for a closer look

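For 4 of the 10 genes, the log2 ratio of mutant over control passed 1.5-fold in opposite directions in different classes, each with a counting interval that left out 0. The difference between classes was not tested, since there was 1 library per genotype. The share of all genes that passed in opposite directions was not computed, so 4 of 10 has no background beside it. P4ha3 was higher in EC-like cells (0.66) and lower in neuron-like (-2.43) and epithelium-like cells (-0.62). Plod1 was higher in branchial muscle-like (0.98) and mesenchyme-like cells (0.61) and lower in cardiomyocyte-like cells (-1.09). Loxl1 was higher in EC-like (1.91), cardiomyocyte-like (2.79) and mesothelium-like cells (0.95) and lower in neuron-like cells (-1.57), with 4 and 1 control UMIs behind the first pair of values. In neuron-like cells the 14 mesenchyme markers summed to 155 CPM in control and 22.7 CPM in mutant. The 8 neural crest markers summed to 504 and 145 CPM. The part of either in the neuron-like values of P4ha3 and Loxl1 was not tested. Loxl3 was higher in branchial muscle-like cells (0.79) and lower in epithelium-like cells (-1.36). Several of these signs turned under another setting. After thinning to 5000 UMIs Plod1 in cardiomyocyte-like cells was 1.45, Loxl1 was -0.32 in EC-like and -0.50 in cardiomyocyte-like cells, and among G1 cells P4ha3 in EC-like cells was -0.014.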

How the results depend on the processing

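No paired analysis was possible because each genotype was 1 library. Among alternative values for single genes and classes, 662 stayed within the counting interval of the reported value. Another 117 moved outside it, and 5 took the opposite sign of a reported value past 1.5-fold. These counts include the settings chosen after seeing the data, which are left out of the ranges and signs that follow. P4ha1, P4ha2 and Plod2 stayed above 0 in all classes but cardiomyocyte-like cells under every alternative. So did Loxl2 in EC-, epithelium-, mesenchyme-, mesothelium- and branchial muscle-like cells. Lox in mesenchyme-like cells lay between -1.96 and -1.25. Low counts limit the cardiomyocyte-like values, those of Loxl3, and those of Lox and Loxl1 in EC-, neuron- and epithelium-like cells. The setting of female-like cells left only 11 control and 12 mutant cardiomyocyte-like cells. The cause of the changes listed next was not tested, except where an alternative leaves out genes or raises the fold. The sign differed under at least 1 alternative for 20 of 70 gene and class values, 14 of them with a reported interval that held 0. The other 6 were Lox in mesothelium-like cells (-0.16 after thinning and -0.13 among female-like cells) and 5 values past 1.5-fold, namely those of Loxl1 in EC-like (-0.32) and cardiomyocyte-like cells (-0.50) and Plod1 in cardiomyocyte-like cells (1.45) after thinning to 5000 UMIs, of Plod3 in cardiomyocyte-like cells among female-like cells (0.38), and of P4ha3 in EC-like cells among G1 cells (-0.014). The number of members lower past 1.5-fold in EC-like cells, 2 as reported, was 1 without integration, with TMM or median-ratio scaling, after thinning, among female-like or G1 cells, with mitochondrial UMIs under 5% and with a list minimum of 100 UMIs, and 0 without high-scoring doublets and with a fold of 2. The number of members higher in cardiomyocyte-like cells, 1 as reported, was 4 without high-scoring doublets, 2 without integration, with TMM scaling and with mitochondrial UMIs under 5%, 3 as a mean over cells, and 0 among female-like cells and with a list minimum of 100 UMIs. The number lower there, 3, was 0 after thinning and with that minimum. In mesothelium-like cells 1 member was lower, against 0, with TMM scaling, as a mean over cells, after thinning and among G1 cells, and the median was 0.35 as a mean over cells. In neuron-like cells the median was 0.46 after thinning and -0.67 among G1 cells, with 1 member lower after thinning and with the minimum of 100 UMIs and 5 among G1 cells. In epithelium-like cells the median was 1.45 after thinning, 0.69 among G1 cells and 1.20 with the minimum of 100 UMIs, and 5 members were lower as a mean over cells and 1 with a fold of 2. In mesenchyme-like cells the median was 0.51 among female-like cells, 0.032 in cluster 0 alone and 1.05 in cluster 4 alone (the Adh1-led cluster at the lower resolution). There 2 members were lower after thinning, among G1 cells and in cluster 0 alone, and 3 were higher in cluster 0 alone and with a fold of 2. The median was 1.73 in EC-like cells among female-like cells and 1.41 in branchial muscle-like cells among G1 cells, and 2 branchial muscle-like members were higher with a fold of 2.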

Other observations

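The classes too small to compare held some of the highest levels of these genes. Smooth muscle-like cells (42 control and 26 mutant cells), led by Myh11 and Actg2, had 293 CPM of Lox in control (257 to 333) and 216 CPM in mutant (176 to 262), above mesenchyme-like cells in the control library. Their P4ha1 stood at 68.4 and 196 CPM and their Plod2 at 70.9 and 235 CPM, with intervals that did not overlap between libraries. Neural crest-like cells (54 and 25 cells), led by Fabp7 and Sox10, had the highest Plod1 of any class in control, 102 CPM (82.9 to 125). This interval overlapped that of control EC-like cells (81.9 CPM, 72.4 to 92.3). Neural crest-like cells also had the highest Loxl3 in control, 26.3 CPM. Their Lox was 2.11 CPM, from the same library in which mesenchyme-like cells held 194 CPM.

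Hepatoblast-like cells, led by Afp and Alb, were 46 in the mutant library and 0 in control. They had 91.7 CPM of Plod1 and 45.0 CPM of P4ha1, and 48.8 CPM of Loxl2. The unnamed cluster led by hemoglobin and macrophage genes (173 and 176 cells) had 37.5 and 78.6 CPM of P4ha1, while P4ha2 stayed at 2.15 and 2.00 CPM there.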
